A study of Mus musculus with 9 samples.

Results

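The genes described here are those whose signal in both skin appendages, the sebaceous gland and the hair follicle, lay on one side of the signal in the surface epidermis. A gene entered when all 6 arrays of sebaceous gland (SG) and hair follicle (HF) lay above, or all 6 lay below, all 3 arrays of interfollicular epidermis (IFE), on the log2 scale and with no minimum distance. Of 14507 genes measured, 2618 (18.0%) met this rule, 822 (5.67%) with the appendages higher and 1796 (12.4%) with the appendages lower. The tissue was tail epidermis of adult wild-type female mice of a mixed C57BL6/CBA background, and the labels name no treatment for any group. Hand-dissected pieces of a compartment were pooled for each of 3 biological replicates, and their amplified RNA was read on mouse exon arrays. The labels do not say which animals contributed to which pool, so a p-value measures the spread between these pools.

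The sebaceous gland is a holocrine gland that hangs on the upper hair follicle, and both grow out of the embryonic epidermis. Their keratinocytes share a basal layer program with the surface, but follicle and gland hold their own stem cells, reached by Wnt, BMP, FGF and EGF family signals, and they do not form the flat cornified barrier of the surface. That barrier is built in the upper layers of the interfollicular epidermis from loricrin, small proline-rich and late cornified envelope proteins, which transglutaminases cross-link, and from ceramides and other lipids between the dead cells. In the mouse tail the surface is further divided into scale and interscale regions with different keratins. Because each sample is a bulk pool, a lower signal from fewer cells of a type and from less RNA per cell cannot be told apart.

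Values are log2 intensities, one per gene and array, taken as the median over the probe sets of the gene. Levels are compared only within a gene. The mean of SG and HF minus IFE is called the appendage difference, and its SE comes from a limma fit to all 9 arrays. A gene was called when its Benjamini-Hochberg adjusted p over all genes was under 0.05 and its log2 difference reached 1 in either direction. The array names in the sample descriptions name another compartment than the titles for 9 of 9 arrays, and the titles were followed. The markers lay as titled: mean log2 levels of a sebocyte list were 9.60 to 9.96 in SG, 8.19 to 8.63 in HF and 7.37 to 7.68 in IFE, and those of a hair and root sheath keratinocyte list 11.13 to 11.78 in HF and 6.97 to 7.03 in IFE. In SG that second list stood at 7.17 and 7.46 in replicates 1 and 2 and higher in replicate 3, where the root sheath keratin Krt27 was at 11.46 against 7.90 and 8.21. HF replicate 2 was the appendage array nearest to the epidermis for 689 of the 1796 lower genes. Leaving out both arrays gave 1073 higher and 2513 lower genes, and leaving out IFE replicate 1 gave 1376 and 3783. Quantile normalization raised the higher genes from 31.4% to 42.3% of those on one side.

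The distance from the epidermis was modest for most of these genes. The median size of the appendage difference was 0.66 (quartiles 0.44 and 1.11) for the higher and 0.78 (0.58 and 1.08) for the lower genes, on the log2 scale, against 0.28 over all genes. In 148 higher and 334 lower genes SG minus IFE and HF minus IFE each reached a log2 difference of 1 or more. The rule used the same arrays as the appendage difference, so its size and adjusted p are a description of the chosen genes. Of the higher genes 240 (29.2%) were called, beside 2.33% of all genes called higher, and of the lower genes 542 (30.2%), beside 4.18% of all genes called lower. Gland against epidermis, 9.49% of all genes were called, 2.54% higher and 6.96% lower, and 225 of the higher and 740 of the lower genes were among them. Follicle against epidermis, 6.31% were called, 2.96% higher and 3.36% lower, and 237 and 398 of the genes described here were among them. These comparisons share the epidermis arrays, so a common direction in them is not independent. Quantile normalization moved the share of higher calls among all calls in the appendage difference from 35.8% to 49.9%, with 362 lower calls in place of 607. The edge of the rule was fine: Fbxo16 entered the higher genes with a gap of 0.00032 between the nearest arrays and Bcs1l stayed out with an overlap of 0.00035, while Rhobtb2 entered the lower genes with a gap of 2.1e-06 and Naxd stayed out with an overlap of 1.6e-05.

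The genes that stood highest in both appendages included Gpx2, a glutathione peroxidase that removes hydrogen peroxide, Krt79, a keratin of the upper follicle and sebaceous duct, Defb6, a beta-defensin, and Cd200, a surface protein of follicle keratinocytes that restrains myeloid cells. Genes are ranked here by the smaller of their 2 differences from the epidermis. Gpx2 gave 9.50, 9.91 and 10.43 in SG, 9.89, 10.77 and 10.13 in HF and 4.49, 5.31 and 5.98 in IFE. Its lowest appendage array lay far above its highest epidermis array, and the appendage difference was 4.85 ± 0.31 (SE), 28.8-fold, with a limma adjusted p of 3.58e-06, although it rests on 1 probe set. Krt79 gave 11.78, 11.95 and 12.01 in SG, 11.28, 11.67 and 11.52 in HF and 7.21, 7.56 and 8.93 in IFE. The appendages were close to each other and IFE replicate 3 was the highest of its group; the appendage difference was 3.80 ± 0.30, 13.9-fold, and all 14 probe sets of Krt79 had its sign. Defb6 gave 12.09, 12.11 and 12.28 in SG, 10.98, 11.68 and 11.05 in HF and 7.30, 7.81 and 8.52 in IFE, an appendage difference of 3.83 ± 0.25. Here the gland was the higher appendage on every array, with SG minus HF at 0.92 (limma adjusted p = 0.0661). Cd200 was the tightest of the group, with 9.24, 9.49 and 9.25 in SG, 8.86, 9.01 and 8.85 in HF and 5.53, 5.61 and 5.89 in IFE. Its appendage difference of 3.44 ± 0.14, 10.9-fold, carried a limma adjusted p of 3.29e-07.

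The remaining names of the first 14 higher genes were Krt27 and Krt25, keratins of the inner root sheath, Krt33a, a keratin of the hair shaft, Sprr4, a small proline-rich protein, Tspan2, a tetraspanin, Serpina3b, a serine protease inhibitor, Elovl3, a fatty acid elongase of sebum, Spink12, a Kazal-type protease inhibitor, Fgf18, a growth factor that holds follicles in their resting phase, and Tlcd4, a membrane protein. Tspan2 stood 2.93 ± 0.36 above the epidermis in SG and 2.82 ± 0.36 in HF, and Spink12 2.77 ± 0.19 and 3.51 ± 0.19. Fgf18 gave 9.94, 10.01 and 8.77 in SG, 9.00, 9.48 and 9.00 in HF and 6.27, 6.63 and 6.39 in IFE, an appendage difference of 2.93 ± 0.26. For Fgf18 4 of 5 probe sets had this sign, and the brightest one alone gave -0.18. The position of Krt27 was of another kind, with 13.14, 12.31 and 13.43 in HF, 7.90, 8.21 and 11.46 in SG and 6.25, 6.05 and 5.88 in IFE. Its SG minus IFE difference was 3.13 with SG replicate 3 and 2.00 without it.

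**Figure D1:**
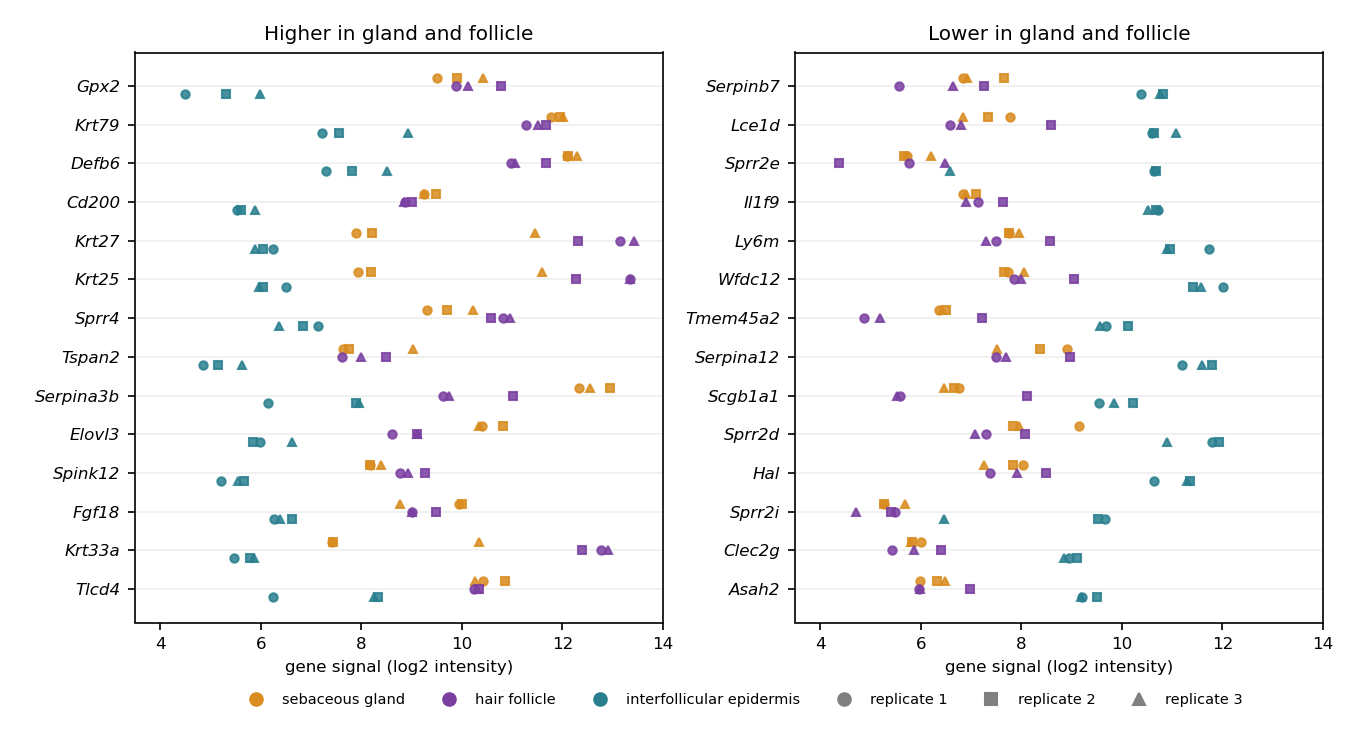
Log2 intensity of the first 14 higher and first 14 lower genes, ranked by the smaller of the gland and follicle differences from epidermis, with 1 point per array, colour for the compartment and shape for the replicate number. For Cd200 the epidermis points lie at 5.53 to 5.89 and the appendage points at 8.85 to 9.49, while for Krt27 and Krt33a the gland points spread between epidermis and follicle.

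The genes that stood lowest in both appendages included proteins of the cornified envelope, protease inhibitors and a cytokine. Serpinb7, a clade B protease inhibitor of keratinocytes, gave 6.85, 7.66 and 6.93 in SG, 5.57, 7.25 and 6.64 in HF and 10.38, 10.82 and 10.76 in IFE. The appendage difference was -3.84 ± 0.31 (SE), 14.3-fold lower, and 8 of 9 probe sets had its sign, the exception being the brightest one at 0.54 (limma adjusted p = 0.0166). Lce1d, a late cornified envelope protein, gave 7.78, 7.33 and 6.85 in SG, 6.58, 8.59 and 6.80 in HF and 10.59, 10.64 and 11.07 in IFE, an appendage difference of -3.45 ± 0.38. Its gland and follicle means coincided, and HF replicate 2 was the highest appendage array. Il1f9, a cytokine of the interleukin 1 family made by stratified epithelia, gave 6.85, 7.10 and 6.90 in SG, 7.13, 7.64 and 6.90 in HF and 10.72, 10.68 and 10.52 in IFE. Its appendage difference of -3.55 ± 0.17, 11.7-fold lower, had a limma adjusted p of 9.63e-07.

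The other lower genes of the first 14 were Sprr2d, Sprr2e and Sprr2i, small proline-rich envelope proteins, Wfdc12, a protease inhibitor of the whey acidic protein type, Serpina12, a clade A serpin, Ly6m, of the Ly6 family, Tmem45a2, a transmembrane protein, Scgb1a1, a secretoglobin, Hal, the enzyme that turns histidine into urocanate, Clec2g, a C-type lectin, and Asah2, a neutral ceramidase. Hal gave 8.03, 7.83 and 7.25 in SG, 7.38, 8.50 and 7.92 in HF and 10.63, 11.35 and 11.30 in IFE, an appendage difference of -3.28 ± 0.26. Asah2 stood at -3.03 ± 0.26 in SG and -2.98 ± 0.26 in HF against IFE, and Clec2g at -3.09 ± 0.23 and -3.06 ± 0.23. Both genes were level between the appendages, with SG minus HF at -0.04 (95% interval -0.62 to 0.53) for Asah2 and -0.02 (-0.52 to 0.47) for Clec2g. Sprr2e was less settled, because its IFE arrays gave 10.64, 10.67 and 6.59, the last just above the highest appendage array at 6.49. The Sprr2e call (-3.60 ± 0.77, limma adjusted p = 0.00636) was lost without IFE replicate 2.

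Promoters are shown for 5 of these genes, 3 lower and 2 higher, to show where 2 short motifs counted over the gene sets lie in them. Each line is the 250 bases before the annotated start, 5′ to 3′ on the strand of the gene, from RefSeq on build GRCm38.p6; capitals mark matches to TATAAA, the core of the TATA box, on either strand and to TGANTCA, the AP-1 site.
Serpinb7: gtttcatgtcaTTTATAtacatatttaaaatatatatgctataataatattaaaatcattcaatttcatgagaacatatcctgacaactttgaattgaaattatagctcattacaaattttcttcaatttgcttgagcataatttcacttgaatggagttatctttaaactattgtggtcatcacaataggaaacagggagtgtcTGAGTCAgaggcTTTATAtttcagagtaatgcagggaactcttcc
Lce1d: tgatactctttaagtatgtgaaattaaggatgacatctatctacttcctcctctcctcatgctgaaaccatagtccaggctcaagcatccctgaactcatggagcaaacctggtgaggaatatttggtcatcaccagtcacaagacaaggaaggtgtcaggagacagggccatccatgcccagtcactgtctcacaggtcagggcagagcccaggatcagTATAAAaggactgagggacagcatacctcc
Sprr2d: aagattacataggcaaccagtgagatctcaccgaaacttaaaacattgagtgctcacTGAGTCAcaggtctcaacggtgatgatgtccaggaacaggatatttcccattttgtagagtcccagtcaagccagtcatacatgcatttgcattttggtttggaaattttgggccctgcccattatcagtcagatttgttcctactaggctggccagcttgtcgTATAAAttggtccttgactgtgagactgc
Krt79: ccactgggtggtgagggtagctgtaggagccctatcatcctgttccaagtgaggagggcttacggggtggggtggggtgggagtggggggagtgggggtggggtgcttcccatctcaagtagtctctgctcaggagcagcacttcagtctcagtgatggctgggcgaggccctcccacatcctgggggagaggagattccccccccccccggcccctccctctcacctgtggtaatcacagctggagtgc
Cd200: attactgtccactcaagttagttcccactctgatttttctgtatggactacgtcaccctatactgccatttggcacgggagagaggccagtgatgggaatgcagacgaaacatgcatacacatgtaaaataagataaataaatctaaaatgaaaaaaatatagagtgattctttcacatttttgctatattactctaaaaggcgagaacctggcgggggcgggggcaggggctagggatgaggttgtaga
They lie at chr1:107422439-107422688 (plus strand) for Serpinb7, chr3:92687211-92687460 (minus) for Lce1d, chr3:92338890-92339139 (plus) for Sprr2d, chr15:101940325-101940574 (minus) for Krt79 and chr16:45409054-45409303 (minus) for Cd200. Lce1d and Sprr2d hold TATAAA at 25 to 30 and 24 to 29 bases before the start. Serpinb7 holds it on the opposite strand at 28 to 33 and 234 to 239 bases and an AP-1 match at 39 to 45 bases, while the AP-1 match of Sprr2d lies at 187 to 193 bases. Neither motif lies in these windows of Krt79 and Cd200.

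Motifs were counted in the genes whose 2 differences both reached 1, with a promoter found for 266 of the 334 lower, 109 of the 148 higher and 11623 of all genes. TGANTCA lay in 37 (13.9%) of the lower, 5 (4.59%) of the higher and 5.68% of all promoters. TATAAA lay in 44 (16.5%), 12 (11.0%) and 9.79%. Families of neighbouring paralogs share promoter sequence, and without the Sprr, Lce, Serpinb, keratin and Skint genes the lower shares were 26 of 241 (10.8%) for TGANTCA and 27 of 241 (11.2%) for TATAAA. AP-1 factors, dimers of Fos and Jun proteins, are known regulators of late epidermal differentiation genes. Of the other 9 motifs searched on both strands, the GC box GGGCGG lay in 48.1% of the lower, 53.2% of the higher and 50.9% of all promoters. The KLF motif GGGTGTGG lay in 6.02%, 4.59% and 3.43%, the ETS motif CCGGAAG in 8.27%, 5.5% and 10.5%, and the antioxidant response core TGACNNNGC, which can overlap an AP-1 match, in 12.4%, 15.6% and 11.4%. The motifs TGTTTAC (forkhead), CTTTGAT (TCF and LEF), ACAATGG (SOX), TGACGTCA (cyclic AMP response) and the CArG box each lay in between 0.917% and 3.67% of any set. These shares describe letters in a window and carry no test.

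Among the higher genes were regulators and markers of the follicle's stem cell and junctional regions. Of 25 measured genes in a stem cell and junctional zone list, 12 were called higher and 0 lower, with a median appendage difference of 0.60 against -0.062 over all genes. In SG against IFE 12 were called higher (2.54% of all genes) and 1 lower (6.96%). In HF against IFE 10 were called higher (2.96% of all genes) and 0 lower (3.36%). Lgr5, an R-spondin receptor of follicle stem cells, gave 7.66, 7.21 and 7.07 in SG, 7.76, 7.47 and 8.01 in HF and 5.49, 5.59 and 5.46 in IFE, an appendage difference of 2.02. Krt15, a keratin of bulge and basal cells, gave 12.57, 13.07 and 12.59 in SG, 12.31, 12.57 and 12.52 in HF and 10.90, 11.11 and 11.29 in IFE, an appendage difference of 1.51 (limma adjusted p = 9.41e-05). Both appendages lay clear of the epidermis for both genes, and gland and follicle met at 12.57 for Krt15 and overlapped for Lgr5. Lrig1, a brake on EGF receptors that marks the junctional zone, stood at 1.23 ± 0.22 in SG and 1.63 ± 0.22 in HF. The one member of the list that was lower on all 6 arrays was Col17a1, a hemidesmosome collagen, with an appendage difference of -0.94, below the size needed for a call. With the brightest probe set for each gene 6 members were called higher and 1 lower; Lgr5 then gave 0.33, Krt15 0.83 and Fgf18 -0.18.

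Transcription factors of follicle and gland lineages showed the same side for fewer members. Of 33 measured, 6 were called higher and 0 lower in the appendage difference, with a list median of 0.30. Taken apart, 5 were called higher (2.54% of all genes) and 3 lower (6.96%) in SG against IFE. In HF against IFE 11 were called higher (2.96% of all genes) and 0 lower (3.36%). Between gland and follicle 7 were called (5.11% of all genes). Lhx2, a LIM homeobox factor of bulge stem cells, gave 8.75, 8.23 and 8.56 in SG, 8.50, 9.11 and 8.79 in HF and 6.67, 6.53 and 6.63 in IFE, an appendage difference of 2.05. Tbx1, a T-box factor of the bulge, gave 8.31, 8.48 and 8.47 in SG, 8.33, 8.33 and 8.22 in HF and 6.85, 7.07 and 6.63 in IFE, an appendage difference of 1.51. Gland and follicle were nearly level for both. Foxc1, a forkhead factor of bulge quiescence, stood at 2.29 ± 0.26 in SG and 2.39 ± 0.26 in HF, but its brightest probe set gave 0.09. The other called factors were Lef1, the nuclear partner of beta-catenin, at 1.89, Runx1 at 1.22 and Tfap2b at 1.20. Sox9, a factor of the outer root sheath, was higher on all 6 arrays at 0.93, and Gata6, of the sebaceous duct and junctional zone, at 0.78; both had sizes under the threshold.

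A list of duct and infundibulum genes, the passage that joins gland and follicle to the surface, had 7 of 14 members called higher and 1 lower, with a median of 1.05. Krt6a, a keratin of the companion layer and outer sheath, gave 11.33, 11.19 and 12.05 in SG, 12.42, 12.37 and 12.41 in HF and 9.17, 9.41 and 9.43 in IFE. Its appendage difference was 2.62, and the follicle stood above the gland by 0.88 (SG minus HF of -0.88, limma adjusted p = 0.0245). Klk10, a kallikrein-related protease, stood at 1.76 ± 0.29 in SG and 3.31 ± 0.29 in HF, and Cst6, a cysteine protease inhibitor, at 1.59 ± 0.21 and 1.75 ± 0.21. The member called lower was Fgfbp1, a carrier of FGF ligands, at -1.23, and that call was lost under quantile normalization. Among 13 keratins of the outer sheath and of simple epithelia 4 were called higher and 0 lower in the appendage difference, with Krt17 at 1.73 beside Krt6a, Krt15 and Krt79. Against IFE 4 of the 13 were called higher (2.54% of all genes) and 2 lower (6.96%) in SG. In HF 6 were called higher (2.96% of all genes) and 0 lower (3.36%). Between gland and follicle 4 were called (5.11% of all genes).

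Genes of a single lineage also entered, with a lesser rise in the other appendage. Of 21 sebocyte genes 11 were called higher and 1 lower in the appendage difference. Far2, which makes fatty alcohols for wax esters, gave 12.12, 12.53 and 12.00 in SG, 9.15, 9.88 and 9.16 in HF and 6.26, 7.00 and 7.38 in IFE. The 3 compartments formed steps, with SG minus HF at 2.82 (limma adjusted p = 0.000307) and HF minus IFE at 2.52 ± 0.29. Fa2h, a fatty acid hydroxylase, and Cidea, a lipid droplet protein, had HF minus IFE at 2.23 ± 0.35 and 1.93 ± 0.21, and the brightest probe set of Cidea gave an appendage difference of 0.43. The sebocyte gene called lower was Dgat2, a triglyceride-synthesizing enzyme, with 8.59, 8.41 and 8.26 in SG, 8.67, 9.04 and 8.73 in HF and 9.94, 10.70 and 10.36 in IFE.

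Of 18 genes of the hair and its inner root sheath 14 were called higher and 0 lower in the appendage difference, with a median of 3.07. Of these 11 had every gland array above every epidermis array. Against IFE 6 of the 18 were called higher (2.54% of all genes) and 2 lower (6.96%) in SG. In HF 15 were called higher (2.96% of all genes) and 0 lower (3.36%). Between gland and follicle 17 were called (5.11% of all genes). Krt33a gave 7.42, 7.44 and 10.34 in SG, 12.77, 12.38 and 12.91 in HF and 5.47, 5.78 and 5.86 in IFE. Its SG minus IFE difference was 2.70, and 1.72 without SG replicate 3, the gland array with the high hair keratin signal. Gprc5d, a receptor of the hair cortex, gave SG minus IFE of 1.93 (limma adjusted p = 0.062) with that array and 0.81 without it.

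Gland and follicle were then compared with each other. The epidermis arrays do not enter this log2 difference. They do enter the shared spread of the fit, and so its SE, adjusted p and calls. The rule still held the 6 appendage arrays on one side, so the shares below describe the chosen genes. Over all genes 741 (5.11%) were called between gland and follicle, 1.81% with the gland above and 3.3% with the follicle above. Of the 822 higher genes 105 (12.8%) were called, 49 with the gland above and 56 with the follicle above. Of the 1796 lower genes 60 (3.34%) were called, 8 with the gland above and 52 with the follicle above. In the genes whose differences from epidermis both reached 1, the counts were 52 of 148 (35.1%) for the higher and 18 of 334 (5.39%) for the lower. Without IFE replicate 1 the share among the higher genes was 8.36%, and with a block for the letter that ends each array name the shares were 8.52% and 1.84%, with 392 calls over all genes.

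**Figure D2:**
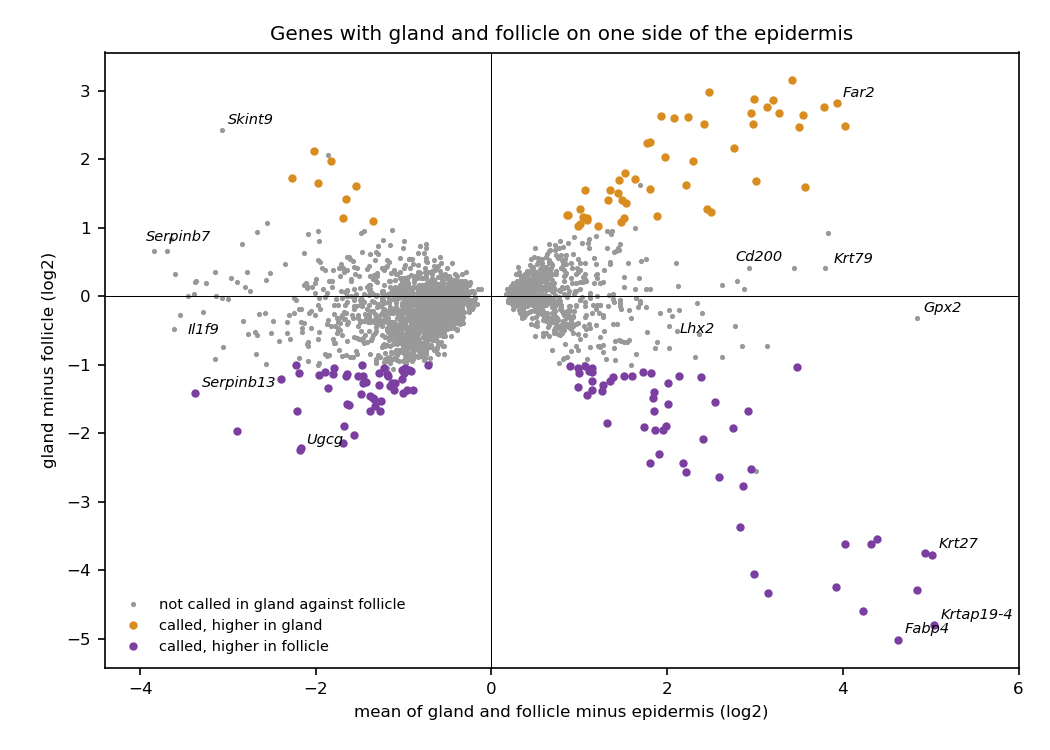
Appendage difference (mean of gland and follicle minus epidermis, log2) on the horizontal axis against gland minus follicle (log2) on the vertical axis, with 1 point for each of the 2618 genes on one side; coloured points were called between gland and follicle. To the right 49 genes were called higher in the gland and 56 in the follicle, reaching -5.01 for Fabp4, while to the left 8 and 52 were called.

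A second category, chosen after the values were seen, took the genes whose gland and follicle could be called level: the 95% interval of SG minus HF lay within 1 log2 unit of 0 in either direction. It held 60 of the 148 strongly higher (40.5%) and 219 of the 334 strongly lower genes (65.6%), beside 11257 of all genes (77.6%). Cd200 ranked first among the higher ones, with SG minus HF at 0.42 (95% interval 0.06 to 0.79). Ptprk, a receptor tyrosine phosphatase of cell contacts, gave 8.83, 9.23 and 8.99 in SG, 9.33, 9.38 and 9.64 in HF and 6.25, 6.54 and 6.60 in IFE. S100a1, a calcium-binding protein, gave 9.40, 9.57 and 10.01 in SG, 9.50, 9.36 and 9.64 in HF and 6.60, 7.14 and 7.12 in IFE. Tmeff1, a membrane protein with follistatin-like domains, gave 8.17, 8.12 and 8.13 in SG, 8.37, 8.36 and 8.30 in HF and 5.94, 5.96 and 6.42 in IFE. These 3 genes sat within narrow bands in each appendage, more than 1 log2 unit above every epidermis array. On the lower side were Il1f9, Ly6m, Clec2g, Asah2, Satb1, a chromatin organizer, at -2.22 ± 0.20, and Cdk6, a cell cycle kinase, at -2.17 ± 0.19.

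At the other end stood genes with the widest gap between the appendages. Fabp4, a fatty acid-binding protein, gave 11.88, 11.35 and 12.05 in HF, 6.02, 5.83 and 8.41 in SG and 5.78, 4.60 and 3.49 in IFE, so that the lowest gland array exceeded the highest epidermis array by little. Krtap19-4, a keratin-associated protein of the hair shaft, had SG minus HF at -4.80 and Krt34, a hair shaft keratin, at -4.33. Among the lower genes Ugcg, the glucosylceramide synthase, gave 6.53, 6.27 and 7.25 in SG, 8.98, 8.75 and 9.03 in HF and 9.61, 10.52 and 9.80 in IFE, with SG minus HF at -2.24 (limma adjusted p = 0.000701). The follicle thus stood between gland and surface for Ugcg. Aadacl2fm1, an arylacetamide deacetylase-like gene, ran the other way, with 7.60, 7.58 and 6.80 in SG, 5.03, 5.55 and 5.06 in HF and 8.08, 8.75 and 8.04 in IFE. Skint9 had the widest gap of the lower genes by value, 2.43 (limma adjusted p = 0.134), because HF replicate 2 at 7.33 stood apart from 3.04 and 2.90 in the other follicle arrays.

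Genes of the cornified envelope fell together. Of 31 measured genes 21 were called lower and 1 higher, with a median appendage difference of -1.56; against IFE 20 were called lower in SG (6.96% of all genes) and 16 in HF (3.36% of all genes). These 2 counts share the epidermis arrays. Lor, loricrin, the main envelope protein, gave 10.11, 9.61 and 9.22 in SG, 9.50, 9.89 and 9.51 in HF and 11.12, 11.26 and 11.48 in IFE, an appendage difference of -1.65. Cnfn, cornifelin, fell by 2.42 on the log2 scale in SG and stood at -0.83 ± 0.16 in HF, a difference between the appendages of -1.59 (limma adjusted p = 0.000288). The member called higher was Sprr4, which gave 9.30, 9.70 and 10.23 in SG, 10.81, 10.57 and 10.96 in HF and 7.14, 6.85 and 6.36 in IFE.

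These genes lay next to each other in the genome. With measured genes placed in RefSeq order, 50 runs of at least 3 adjacent genes were lower, holding 176 genes, and 11 runs were higher, holding 34. Lower genes were 12.4% and higher genes 5.67% of all genes, so more lower runs arise from the shares alone. Whether there were more runs than these shares give was not tested. The longest, on chromosome 3, ran through 8 genes from Sprr2b to Sprr1b with a median appendage difference of -2.94, and 8 of 8 were called. The next, on the same chromosome, ran through 7 Lce1 genes from Lce1a1 to Lce1l with a median of -2.49, and all 7 were called. Another, on chromosome 1, ran through Vps4b, Serpinb5, Serpinb12, Serpinb13, Serpinb3d and Serpinb3c with a median of -2.15 and 4 calls; Vps4b is an endosomal ATPase, not a serpin. Probes of near-identical paralogs such as the Sprr2 genes can hybridise to each other's transcripts, so the single members are uncertain. The call of Sprr2f was lost under quantile normalization, median centring and several left-out arrays. Of the higher runs, 3 held hair keratins: Krt222, Krt25 and Krt27 on chromosome 11 with a median of 4.94, Krt71, Krt72 and Krt73 on chromosome 15 at 4.32, and Krt33a, Krt34 and Krt31 on chromosome 11 at 3.92. In the first of these Krt222 differed by 0.25 (limma adjusted p = 0.216) and was not called.

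**Figure D3:**
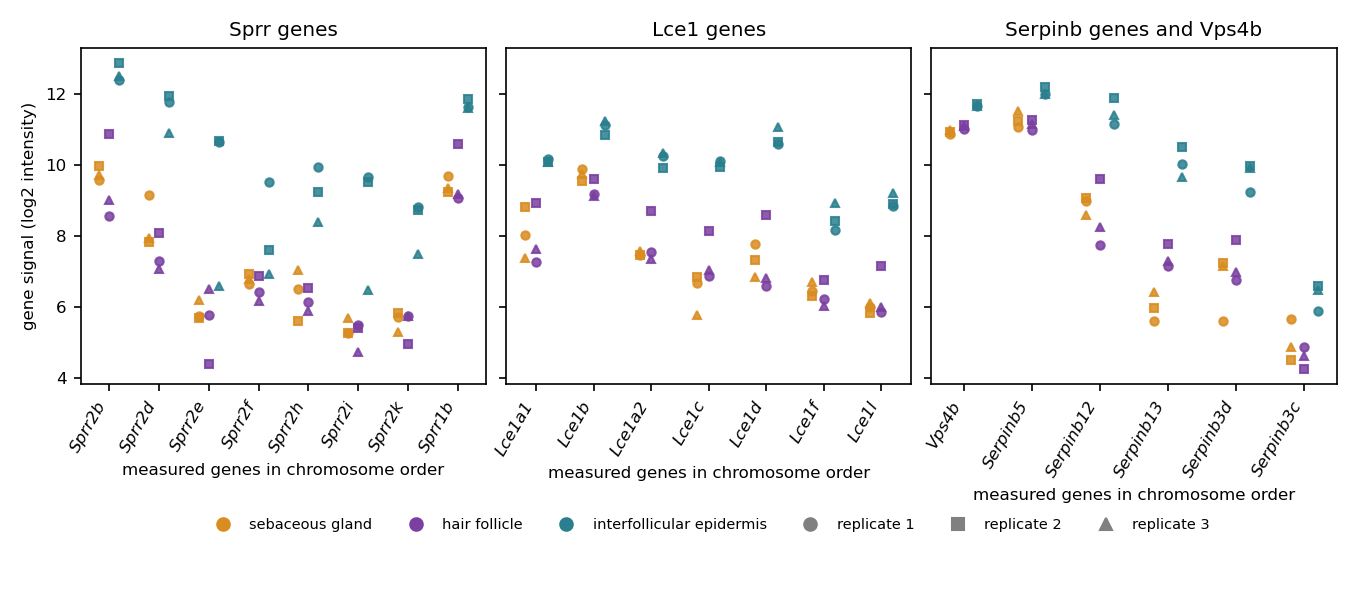
Log2 intensity of the neighbouring lower genes in 3 runs, in chromosome order, with 1 point per array, colour for the compartment and shape for the replicate. In each gene the epidermis points lie above the appendage points; IFE replicate 3 is the lowest epidermis array for Sprr2e (6.59) and Sprr2i (6.47).

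Lipid barrier genes followed, with 12 of 29 called lower and 1 higher and a median of -0.72. Alox12b and Aloxe3, the lipoxygenases that process barrier ceramides, had appendage differences of -2.67 and -2.58. Aloxe3 gave 6.99, 7.05 and 6.97 in SG, 7.07, 7.57 and 7.13 in HF and 9.32, 9.97 and 9.83 in IFE, so the appendages were nearly level. Abca12, which loads lipids into lamellar granules, gave 7.63, 7.52 and 8.10 in SG, 9.13, 9.78 and 9.36 in HF and 10.73, 10.99 and 10.67 in IFE. In contrast to Aloxe3 the follicle stood between gland and surface, with SG minus HF at -1.67 (limma adjusted p = 0.000831). The member called higher was Fa2h, which sebocytes use as well.

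Markers of the suprabasal surface layers were lower on every appendage array for 10 of 12 measured genes, and 9 were called, with a median of -1.55. Of 9 keratins of the suprabasal layers and tail scales, Krt84, a keratin of tail scale, had an appendage difference of -2.33, Krt2 of -1.97 and Krt10 of -1.14, the Krt10 call being lost under quantile normalization. Krt77, a suprabasal keratin of the surface and the sweat duct, went the other way, with 8.22, 8.92 and 9.39 in SG, 8.20, 8.26 and 8.44 in HF and 6.38, 7.14 and 6.91 in IFE. Of 16 basal layer genes 3 were called lower and 0 higher, and 8 were lower on all 6 arrays. Itga6, an integrin of hemidesmosomes, gave 9.11, 9.44 and 9.35 in SG, 8.57, 9.51 and 9.12 in HF and 10.70, 11.09 and 11.22 in IFE. The pan-basal keratins Krt14 and Krt5 overlapped between compartments, with appendage differences of 0.13 (limma adjusted p = 0.662) and -0.20 (0.485). Of the 16 basal genes 8 were called lower without IFE replicate 1, 6 without SG replicate 3 and 5 without HF replicate 2.

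Of 33 cell adhesion genes 8 were called lower (5 under quantile normalization) and 3 higher (Pkp2, Dsc2 and Dsg4). The rise of Dsc2 was mostly that of the follicle, at 3.02 ± 0.27 in HF and 0.59 ± 0.27 in SG. Its call was lost with the brightest probe set. The falls were mostly those of the gland. Against IFE 15 were called lower (6.96% of all genes) and 2 higher (2.54%) in SG. In HF 3 were called lower (3.36% of all genes) and 4 higher (2.96%). Between gland and follicle 10 were called (5.11% of all genes). Nectin3, an immunoglobulin-like adhesion protein, gave 6.07, 6.22 and 7.37 in SG, 8.51, 8.45 and 8.60 in HF and 10.52, 10.72 and 10.07 in IFE, and Cldn23, a claudin, had an appendage difference of -2.09. Nectin3 kept the follicle between gland and surface, and its brightest probe set gave an appendage difference of -0.02. Pkp2, a desmosomal plaque protein of simple epithelia and heart, was higher, with 7.39, 7.75 and 7.58 in SG, 7.66, 7.45 and 7.70 in HF and 5.72, 6.14 and 5.99 in IFE; its brightest probe set gave 0.81. Of 22 serpins 9 were called lower and 1, Serpina3b, higher. Serpinb13, a cathepsin inhibitor, gave 5.60, 5.97 and 6.42 in SG, 7.15, 7.76 and 7.30 in HF and 10.04, 10.52 and 9.66 in IFE. Of 26 kallikreins and other proteases and inhibitors, 5 were called higher, led by Spink12 and Klk10, and 6 lower, led by Tmprss11f, a membrane-bound serine protease, at -1.91; the arrays of Tmprss11f overlapped between follicle and epidermis.

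**Figure D4:**
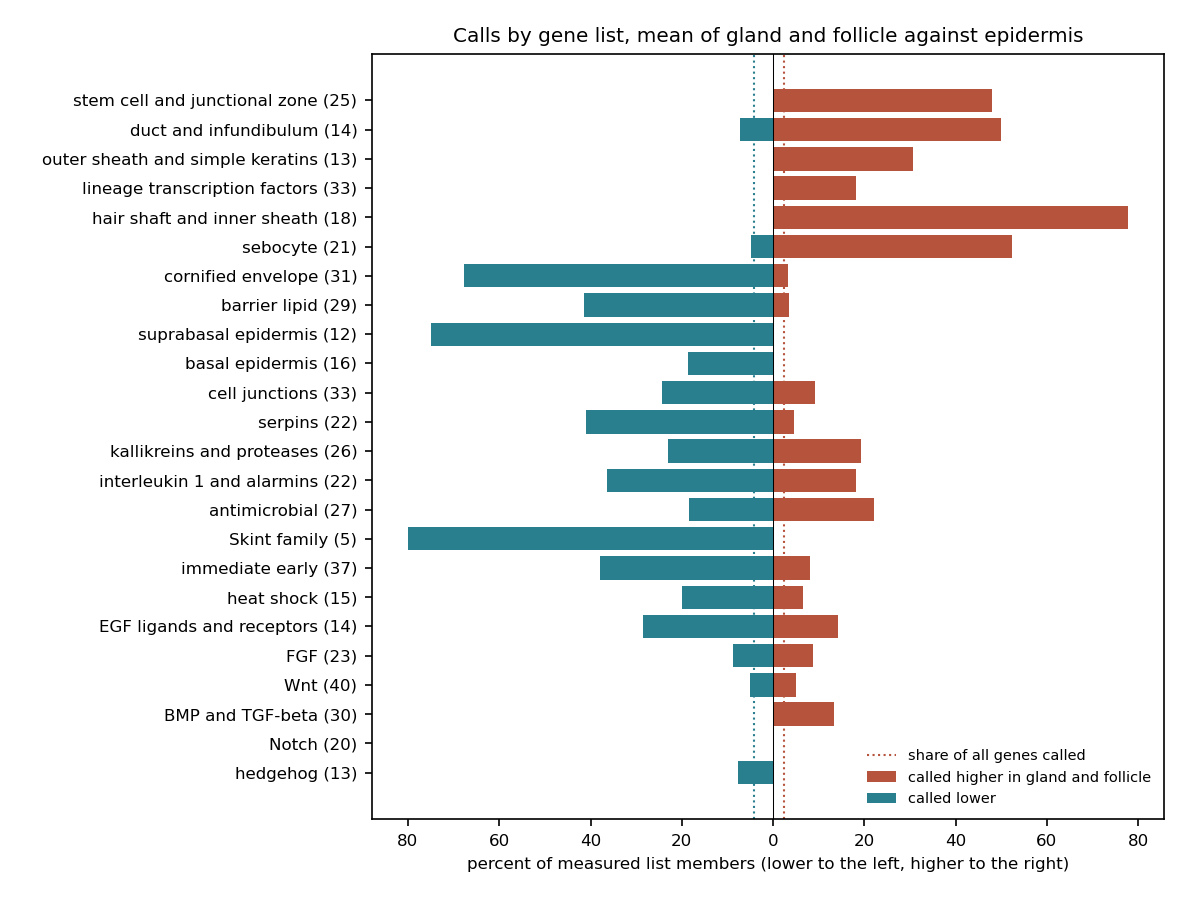
Percent of the measured members of each gene list called higher (to the right) or lower (to the left) in the appendage difference, with the number measured in brackets; dotted lines mark the share of all genes called, 2.33% higher and 4.18% lower. The cornified envelope (21 of 31 lower) and suprabasal (9 of 12 lower) lists reach far to the left, and the stem cell (12 of 25 higher) and hair shaft (14 of 18 higher) lists far to the right.

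Of 14 EGF family ligands, receptors and regulators 4 were called lower and 2 higher, and 2 lower without IFE replicate 2. Ereg, epiregulin, an EGF receptor ligand, gave 7.08, 6.42 and 7.05 in SG, 7.65, 7.54 and 7.58 in HF and 10.72, 10.88 and 9.25 in IFE, an appendage difference of -3.06. Btc, betacellulin, a ligand of the same receptor, had -1.67 and its brightest probe set -0.15. Epgn, epigen, another ligand, overlapped between follicle and epidermis at IFE replicate 3. Over all genes 2.33% were called higher and 4.18% lower in the appendage difference. The few calls in the Wnt, FGF, hedgehog and Notch lists lie near that background for lists of this size. Of 40 Wnt pathway genes 2 were called higher and 2 lower, with a median of 0.01. These counts moved with single arrays, to 4 lower without IFE replicate 1, 4 higher without SG replicate 1, and 1 lower without SG replicate 1, HF replicate 1, IFE replicate 2 or IFE replicate 3. Fzd3, a Wnt receptor, gave 8.64, 8.00 and 8.44 in SG, 8.75, 9.02 and 8.93 in HF and 6.15, 6.37 and 6.28 in IFE. Dkkl1, a dickkopf-like secreted protein, was the larger of the Wnt falls at -1.96. Of 23 FGF genes 2 were called higher and 2 lower, with the receptor Fgfr2 at -1.32 beside the ligand Fgf18 at 2.93. Of 30 BMP and TGF-beta genes 4 were called higher and 0 lower: Fstl1 at 1.77, Inhba at 1.09, Fst at 1.14 and Grem1 at 1.80, of which Grem1 rests on 1 probe set and its arrays overlapped. Only 2 were called without IFE replicate 1, which ended the call of Inhba, and 2 without IFE replicate 2, which ended that of Fst. With the brightest probe set the calls of Fstl1, Inhba and Fst were lost. Fst and Grem1 are secreted antagonists of this pathway. Against IFE 4 of the 30 genes were called higher (2.54% of all genes) and 3 lower (6.96%) in SG. In HF 4 were called higher (2.96% of all genes) and 0 lower (3.36%). Between gland and follicle 4 were called (5.11% of all genes). Of 13 hedgehog genes only Hhip, a hedgehog-binding membrane protein, was called, at -2.04 (-0.43 with the brightest probe set), and of 20 Notch genes 0 were called by limma, with 9 at an unadjusted p under 0.05 and 3 higher and 1 lower on all arrays; the brightest probe set gave 2 higher and 2 lower calls for Notch.

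Genes of immediate early response, which cells switch on within minutes of a stimulus, were mostly lower where they were called. Of 37 measured 14 were called lower and 3 higher, with a median of -0.73. Dusp1, a phosphatase of MAP kinases, gave 8.72, 8.29 and 8.39 in SG, 8.67, 9.08 and 8.47 in HF and 11.20, 11.20 and 10.34 in IFE. Zfp36, which destabilises cytokine transcripts, gave 8.45, 8.20 and 8.69 in SG, 9.07, 9.33 and 9.01 in HF and 11.13, 11.11 and 10.43 in IFE. For both, IFE replicate 3 was the epidermis array nearest to the appendages. Atf3, a stress-response factor, had an appendage difference of -2.69, Fos, an AP-1 subunit, of -1.92 and Btg2, an antiproliferative gene, of -1.80. The genes called higher were Dusp4 at 1.36, Egr2 at 1.27 and Ccn2 at 1.17. Quantile normalization left 9 calls lower, and the brightest probe set 15 lower and 0 higher. Of 15 heat shock genes 3 were called lower (1 with the brightest probe set), with the chaperone Hspa1a at -1.57, and 1 higher, the small heat shock protein Cryab at 2.02.

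**Figure D5:**
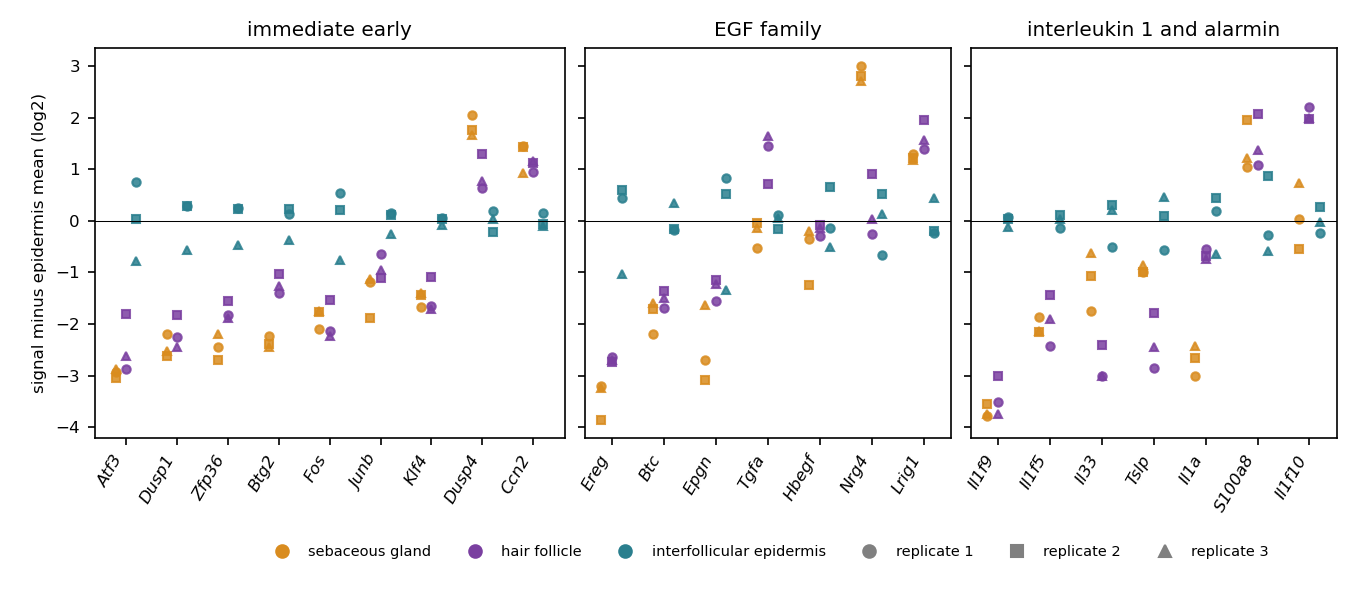
Log2 intensity of chosen immediate early, EGF family and interleukin 1 and alarmin genes, minus the mean of the 3 epidermis arrays of the same gene, with 1 point per array. Dusp1, Zfp36, Ereg and Il1f9 lie below 0 on every appendage array, Dusp4 and Ccn2 lie above, and the gland points of Nrg4 lie above its follicle points.

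Among 22 interleukin 1 family and alarmin genes 8 were called lower and 4 higher, with a median of -0.83. Besides Il1f9, Il1f5, a receptor antagonist of the same branch, had an appendage difference of -1.98, and Il33, an alarmin, gave 7.16, 7.84 and 8.29 in SG, 5.90, 6.51 and 5.91 in HF and 8.40, 9.22 and 9.11 in IFE. The gland lay between follicle and surface for Il33, with SG minus HF at 1.66 (limma adjusted p = 0.00538), and the call of Il33 was lost with its brightest probe set. S100a8, an antimicrobial calcium-binding protein, was higher on all 6 arrays at 1.46, a call lost without IFE replicate 3. Without IFE replicate 1 the list had 10 lower and 1 higher, and without IFE replicate 3 it had 9 and 2. Of 27 antimicrobial genes 6 were called higher, led by Defb6, and 5 lower, led by Wfdc12, and a block for the array letter left 3 higher. All 4 Skint genes called, of 5 measured, were lower, with Skint4, a butyrophilin-like protein of keratinocytes, at 6.95, 6.40 and 6.42 in SG, 4.55, 5.47 and 4.59 in HF and 7.58, 8.36 and 8.06 in IFE. The Skint3 call was lost with any single array left out other than HF replicate 2, and 2 of the family were called without IFE replicate 2 or IFE replicate 3.

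Markers of other cells that could adhere to the dissected pieces were set beside these values. A fibroblast and papilla list of 23 genes had mean levels of 7.34 to 7.70 in SG, 7.47 to 7.52 in HF and 7.05 to 7.25 in IFE, with 3 genes called higher (Vcan, Dcn and Fap) and 6 higher on all arrays. The arrays of Dcn and Fap overlapped between gland and epidermis, and 1 gene of this list was called without IFE replicate 1, without IFE replicate 2 or without HF replicate 3. An adipocyte list of 13 had 7.19 to 7.37 in SG, 7.18 to 7.28 in HF and 6.20 to 6.41 in IFE, with Fabp4, Cd36 and Lpl called. In this list 4 genes were higher on all arrays (Adipoq, Fabp4, Pck1 and Cd36). The arrays of Lpl overlapped, and its call was lost with the brightest probe set. Of the called genes Cd36, a fatty acid transporter, was the more marked in the gland, with 9.54, 9.48 and 8.50 in SG and 5.96, 6.89 and 6.40 in HF. Muscle and pericyte genes had 1 of 13 called higher (Acta2 at 1.35) and 4 higher on all arrays. Endothelial genes had 0 of 13 and melanocyte genes 0 of 16 called by limma, where 3 and 9 had an unadjusted p under 0.05 and 2 of each list were higher on all arrays. The melanocyte list had 4 calls higher with the letter block and 2 without SG replicate 1 or IFE replicate 3. Of 17 Langerhans cell genes 0 were called by limma in the appendage difference (4 at an unadjusted p under 0.05), and Cd207, their langerin, was lower on all arrays at -0.75. In HF against IFE 4 were called lower (3.36% of all genes), and 0 in SG (6.96%). Between gland and follicle 4 were called (5.11% of all genes). The list means were 6.88 to 7.10 in HF, 7.43 to 7.67 in SG and 7.26 to 7.44 in IFE. Of 14 genes of epidermal T cells Gzmc was called higher and Thy1 lower, and both calls were lost with the letter block, with the brightest probe set and without IFE replicate 3, that of Thy1 also without IFE replicate 2. The part of these cells in the shared differences was not tested.

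Lists of general cell programs are given beside the 2.33% of all genes called higher and 4.18% called lower, so a few calls or none in a list of this size lie near the background. Of 26 cell cycle genes 0 were called by limma (6 at an unadjusted p under 0.05), and 1 (Mcm4) was lower on all arrays. Of 24 oxidative phosphorylation genes 0 were called by limma (6 at an unadjusted p under 0.05), with 2 higher on all arrays and a median of 0.07. Glycolysis and hypoxia genes had 2 of 19 called lower, Egln3 and P4ha1, and 6 lower with the brightest probe set, which turned P4ha1 to 0.22. Among 15 genes of the unfolded protein and amino acid stress responses 6 were lower on all 6 arrays without a call, and Chac1, a glutathione-degrading enzyme, was called higher from the follicle alone, with 10.09, 10.57 and 10.27 in HF, 7.39, 7.11 and 8.00 in SG and 7.57, 7.46 and 7.49 in IFE.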

How the data were processed

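Sebaceous gland, hair follicle and interfollicular epidermis, 3 arrays each, were grouped by sample title. The authors deposited a linear intensity for each of 154736 probe sets and 9 arrays, from 2.5 to 30815; RMA, Affymetrix Power Tools and build mm9 are named, without roles, per the submitters' processing notes. Array medians were 176, 184 and 198 in SG, 195, 210 and 207 in HF and 194, 233 and 234 in IFE. The level of an array thus ran partly with its compartment, and the brightest arrays were epidermis replicates 2 and 3. Without detection calls the signal over background could not be given, which limits what dim genes show, and 3 arrays per group limit the precision. Values were log2-transformed as they stood, without a pseudocount or another normalization. The 146964 probe sets with 1 symbol were kept (1060 had several, 6712 none), and the median over a gene's probe sets (typically 8, and only 1 for 911 genes) was taken for 14507 genes. Symbols were updated for 1754 genes from RefSeq, and 14472 genes found in it (assembly GRCm38) were placed in order; no coordinates of probe sets were used.

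limma 3.58.1 in R 4.3.3 was fitted with 1 mean per compartment and eBayes, with Benjamini-Hochberg adjustment across all genes. The contrasts were the mean of SG and HF minus IFE, SG minus IFE, HF minus IFE and SG minus HF. Genes were named by rule: the first 14 higher and lower by the smaller difference, leaving out gene models without an official name, olfactory and immune receptor genes; the 5 per direction with the largest SG minus HF difference; up to 4 per list by p and 2 of the opposite direction; the longest runs of neighbours; and markers. Ptprk, S100a1, Tmeff1, Satb1, Cdk6 and other genes named outside this rule were chosen after their values were seen, as were the motifs' gene sets. The members and the 37 gene lists were chosen with earlier results of these data known. On data simulated for the appendage difference over 14507 genes, the code called 89 of 100 genes shifted by 1.5 on the log2 scale. It called 100 of 100 shifted by 3, with 0 false calls. The simulated noise was independent between genes and arrays, and the shift was the same in SG and HF. Array-wide deviations and gaps between the appendages were not simulated, so these rates do not carry over to the real arrays. Alternatives were blocks, normalizations, filters, probe set summaries, fits, thresholds and left-out arrays.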

Additional observations from a re-analysis of the deposited data

Results flagged for a closer look

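These genes lay on one side of the epidermis in both appendages, yet gland and follicle differed from each other by the limma test of SG minus HF (log2), adjusted over all genes. The gland was the higher appendage for Serpina3b at 2.48, Aadacl2fm1 at 2.12 and Elovl3 at 1.59. The follicle was the higher appendage for Fabp4 at -5.01, Krtap19-4 at -4.80, Gprc5d at -4.59, Krt34 at -4.33, Krt33a at -4.28, Krt27 at -3.77 and Krt25 at -3.74, all of them among the higher genes, and for Sprr4 at -1.03. Among the lower genes the follicle stood above the gland for Ugcg at -2.24, Ugt1a5, a glucuronosyltransferase, at -2.21 and Lipm, an epidermal lipase, at -2.14. For the hair keratins SG replicate 3 was the gland array nearest to the follicle. Groups of 3 arrays are too small for a test of single outlying arrays.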

How the results depend on the processing

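The calls in the appendage difference ranged from 774 to 1242 with 1 array left out (945 with all), the higher ones from 314 to 361 and the lower ones from 460 to 908. The calls ranged from 1146 to 1752 for SG against IFE (1377), from 763 to 1146 for HF against IFE (916) and from 535 to 994 for SG against HF (741). The genes on one side ranged from 2832 to 5159 (2618 with all), the higher from 905 to 1376 and the lower from 1873 to 3783. Fewer arrays have to keep apart when 1 is left out. The highest counts came without IFE replicate 1, while 3054 and 3181 genes lay on one side without IFE replicate 2 and IFE replicate 3. The cause of the larger move without IFE replicate 1 was not tested. The share called between gland and follicle ranged from 8.36% to 12.6% of the higher and from 2.24% to 4.64% of the lower genes.

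Whether the replicate numbers pair the arrays was not settled. Deviations from the group means correlated between -0.0188 and 0.2251 for arrays of one number and between -0.1552 and 0.111 for others. These ranges overlap, but both ends were higher for arrays of one number. With the replicate block the appendage difference had 957 calls, SG against IFE 1398, HF against IFE 944 and SG against HF 781, and 0 of the 135 named calls were lost. With the letter at the end of the array names as a block SG against HF had 392 calls, with shares of 8.52% and 1.84%. Quantile normalization gave 362 lower calls. The brighter 50% of genes gave 167 higher calls, 597 for HF against IFE, 1710 genes on one side (316 higher) and a share of 19.6% of the higher. A fit of 2 groups gave 210 higher calls. The brightest probe set gave a share of 5.76% of the lower genes and reversed Fgf18 (-0.18), Mbp (0.25), P4ha1 (0.22), Serpinb7 (0.54) and Thy1 (0.35); 32 other named calls were lost. The cause was not tested for these changes. In the order appendage difference, higher, lower, SG against IFE, HF against IFE and SG against HF, a log2 threshold of 0 gave 2942, 884, 2058, 3171, 1750 and 1373 calls, one of 0.58 gave 2516, 743, 1773, 2992, 1724 and 1361, and one of 1.5 gave 380, 167, 213, 483, 420 and 302. Of the 135 named calls 84 held in every setting run at the threshold of 1 in which the gene was present. The brighter 50% of genes included 98 of the 135.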
